A study of Mus musculus with 6 samples.

Results

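The circadian clock genes described here are the 10 rows of the expression table whose gene name is Arntl, Clock, Npas2, Per1, Per2, Per3, Cry1, Cry2, Nr1d1 or Dbp, out of 35275 genes in all. All 10 were found, each as a single row, and all 10 passed the filter on low values. RNA sequencing measured mRNA in whole epididymal fat of male C57BL/6 mice aged 4.5 months. The 3 KO samples came from mice labelled TfrcAKO and the 3 WT samples from mice labelled Tfrcfl/fl, with Tfrc being the gene of the transferrin receptor and fl the usual mark of a floxed allele. Animals of both groups ate a diet with 60% fat for 10 weeks from 2 months of age. The labels spell out neither AKO nor a Cre driver. Nor do they tie samples to single animals, and the p-values here rest on the spread among the 3 samples of a group, which may be technical. The clock time of tissue collection is not given in the sources used here.

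The mammalian clock is a transcriptional feedback loop. ARNTL (BMAL1) pairs with CLOCK or its paralogue NPAS2 and activates genes that carry E-box elements, among them the Per, Cry, Nr1d1 and Dbp genes. PER and CRY proteins then repress that activator pair, while REV-ERBα, the product of Nr1d1, represses Arntl, Clock and Npas2. DBP carries the rhythm on to output genes through D-box elements. In peripheral tissues of nocturnal rodents the activator transcripts are known to be high around the end of the night, those of Nr1d1, Dbp and the Per genes in the course of the day and evening, and Cry1 later in the night. REV-ERBα and NPAS2 are also known to bind heme, the iron-containing cofactor.

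Clock mRNAs moved in opposite directions in the 2 arms of the loop. The activators Arntl and Npas2 were lower in KO fat, and Nr1d1, Dbp, Per1, Per2, Per3 and Cry2 were higher. Clock and Cry1 did not pass the test. By limma at a Benjamini-Hochberg adjusted p under 0.05, 8 of the 10 members were called, beside 43.5% of all 14383 genes tested. Among the 7 E-box targets 6 were higher, beside 21.9% of all tested genes called higher, and among the 3 activators 2 were lower, beside 21.6% called lower. In 7 of the 10 members the KO and WT samples did not overlap, beside 60.1% of all tested genes. The median difference over the 7 targets was 0.69 and over the 3 activators −0.99 on the log2 scale, beside −0.03 over all genes tested.

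Depth was 25252839 to 30650624 reads assigned to genes per sample. On the first principal component (78.3% of variance) KO samples lay at 21.7, 25.2 and 60.9 and WT samples between −41.7 and −28.6, so KO replicate 3 stood apart. Tfrc, the targeted gene, was at 7.10, 8.27 and 9.50 FPKM in KO replicates 1, 2 and 3, against 11.1, 13.2 and 11.9 FPKM in WT replicates 1, 2 and 3, and its limma adjusted p of 0.0147 became 0.0595 without WT replicate 2 and 0.0525 without WT replicate 3. The fat identity of the tissue was clear from Adipoq (adiponectin), at 1249 to 1875 FPKM in KO and 326 to 499 FPKM in WT samples. Of 20 mature adipocyte markers 19 were higher in KO fat and none lower, and of 19 macrophage markers 18 were lower and none higher (8 lower without WT replicate 2). The adipocyte markers summed to 22437, 23553 and 30877 FPKM in KO replicates 1, 2 and 3, against 13057, 9352 and 9992 FPKM in WT replicates 1, 2 and 3. The 19 macrophage markers summed to between 1956 and 4710 FPKM in KO and between 8852 and 10715 FPKM in WT samples, lowest in KO replicate 3. Of 10 endothelial markers all 10 were higher, 9 of 10 mesothelial markers were higher, and 3 of 10 progenitor and fibroblast markers and 6 of 9 tested mast cell markers were lower, with 1 mast cell marker, Gata2, higher. None of 10 T and B cell markers was called, and of 10 genes of epididymis and testis none passed the filter. Mitochondrially encoded genes took 2.44, 2.61 and 4.09% of reads in KO replicates 1, 2 and 3, against 1.88, 1.76 and 1.73% in WT replicates 1, 2 and 3. The part of these marker and read shares in the clock differences was not tested, and in whole tissue fewer cells of a type and less RNA per cell cannot be told apart.

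**Figure D1:**
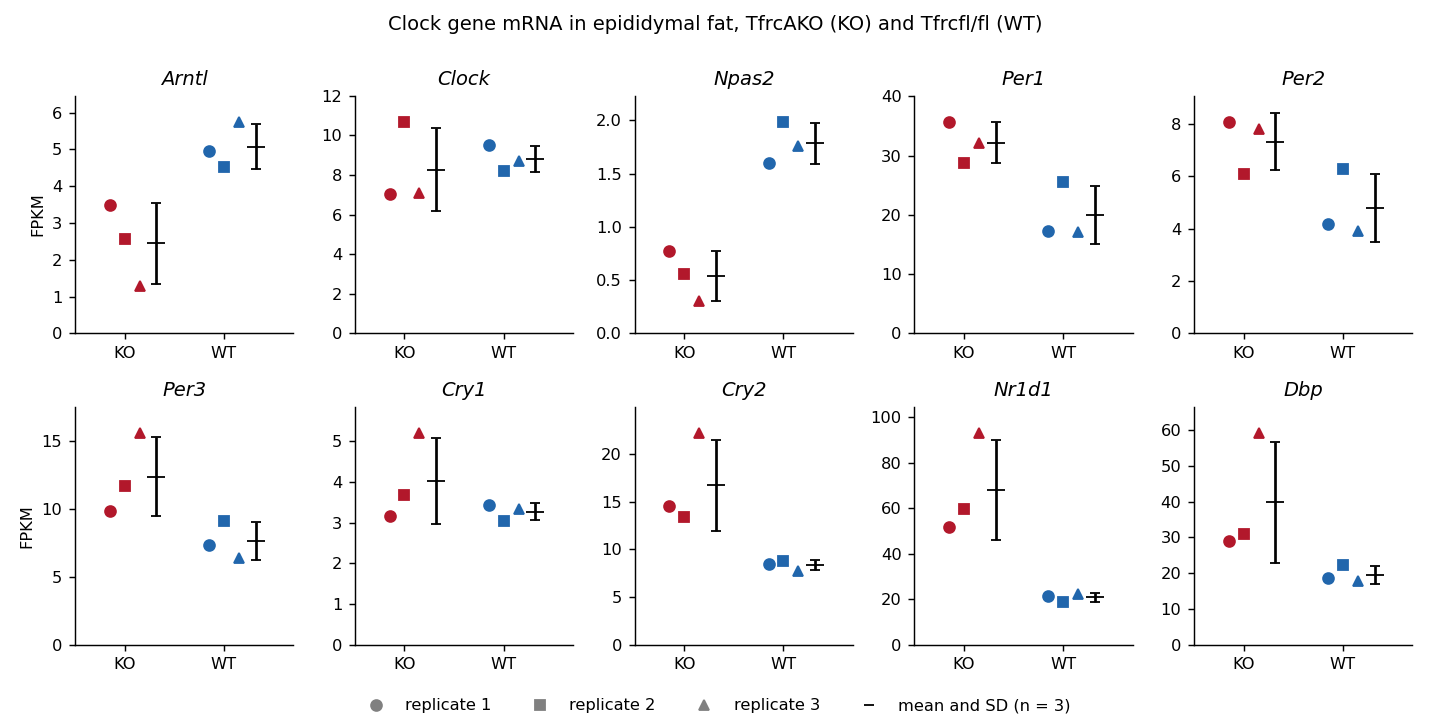
FPKM of the 10 clock members in each KO and WT sample, with 1 marker shape per replicate and the mean and SD of 3 samples in black; each panel starts at 0. Arntl and Npas2 lay lower in all KO samples, Nr1d1, Dbp, Per1, Per3 and Cry2 higher, and Clock, Per2 and Cry1 overlapped between the groups.

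Arntl (ENSMUSG00000055116, mm10 chromosome 7, 113207465 to 113314122, plus strand) encodes BMAL1, the activator partner without which the loop stops. It was at 3.48, 2.57 and 1.30 FPKM in KO replicates 1, 2 and 3, against 4.96, 4.53 and 5.75 FPKM in WT replicates 1, 2 and 3. Every KO sample was below every WT sample, and KO replicate 3 was lowest of all. The recovered reads behind these values were 310, 197 and 95 in KO and 420, 343 and 492 in WT samples. The mean was 2.45 ± 1.10 FPKM in KO and 5.08 ± 0.62 FPKM in WT fat (SD, n = 3 each). On the log2(FPKM + 0.5) scale Arntl fell by 0.99 ± 0.28 (SE; limma adjusted p = 0.0295). With KO replicate 3 left out the difference was −0.67 with an adjusted p of 0.0105 by limma. The limma adjusted p was 0.0553 without KO replicate 2, 0.0733 without WT replicate 1, 0.0715 without WT replicate 2 and 0.0960 without WT replicate 3.

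REV-ERBα binds a short element, and Arntl is its classic target. Both strands of 300 bases around each RefSeq start (250 before, 50 after, GRCm38.p6) were searched for the letters TAGGTCA and TGGGTCA. RefSeq promoters were matched for 9 of the 10 members, all but Per2. These 9 members had 13 promoters between them, and 1 promoter held a match. It was that of Arntl, in the transcribed bases just after the more downstream of its listed starts. Of all 32817 RefSeq promoters, 6.46% held such a match, so 1 among 13 does not stand out from that share. Whether REV-ERBα acts through this match in these samples was not tested. The 30 bases around it (chr7:113207529-113207558, plus strand) are shown because Arntl and Nr1d1, whose protein is known to act on this element, moved in opposite directions; capitals mark the matched letters.
Arntl element: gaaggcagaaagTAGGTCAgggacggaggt

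Npas2 (ENSMUSG00000026077, chromosome 1, 39193731 to 39363234, plus strand) encodes the CLOCK paralogue that can take its place beside BMAL1. It was the least abundant member, at 0.771, 0.555 and 0.299 FPKM in KO replicates 1, 2 and 3, against 1.60, 1.99 and 1.76 FPKM in WT replicates 1, 2 and 3. The groups lay far apart, although 100, 62 and 32 reads stood behind the KO values and 198, 219 and 220 behind the WT values. The ratio of the mean FPKM, KO over WT, was 0.304. On the same log2 scale Npas2 fell by 1.15 ± 0.19 (SE; limma adjusted p = 0.00599). A pseudocount of 0.5 shrinks a difference at this level: limma-voom on the recovered reads gave −1.77 with an adjusted p of 0.00419. Npas2 kept an adjusted p under 0.05 in all 14 alternatives run. With the filter at 1 FPKM, however, it passed only through the WT samples, where it is high.

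Clock (ENSMUSG00000029238, chromosome 5, 76212177 to 76304548, minus strand), the histone acetyltransferase partner of BMAL1, gave a different picture from Npas2. Its values were 7.06, 10.7 and 7.09 FPKM in KO replicates 1, 2 and 3, against 9.50, 8.21 and 8.68 FPKM in WT replicates 1, 2 and 3. KO replicate 2 was the highest of the 6 samples and the other KO samples were the lowest. The difference was −0.11 with a 95% interval from −0.50 to 0.28 and a limma adjusted p of 0.623. The Arntl estimate of −0.99 lies outside that interval. The 95% interval of Arntl, from −1.66 to −0.32, overlaps it, and the 2 genes were not tested against each other. Clock was not called in any of the 14 alternatives, the nearest being −0.29 with a limma adjusted p of 0.0514 without KO replicate 2. As a level per length, the Npas2 to Clock ratio within a library was 0.109, 0.0519 and 0.0422 in KO samples, against 0.169, 0.242 and 0.203 in WT samples.

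Nr1d1 (ENSMUSG00000020889, chromosome 11, 98767932 to 98775333, minus strand), the gene of the heme-binding repressor REV-ERBα, showed the largest difference among the members on the log2(FPKM + 0.5) scale, although by the ratio of means Npas2 differed about as much in the other direction. It was at 51.8, 59.5 and 93.0 FPKM in KO replicates 1, 2 and 3, against 21.3, 18.7 and 22.1 FPKM in WT replicates 1, 2 and 3. The lowest KO sample had over 50 FPKM and the highest WT sample 22.1 FPKM, so the groups were far from overlapping. The mean was 68.1 ± 21.9 FPKM in KO and 20.7 ± 1.78 FPKM in WT fat (SD, n = 3 each), a ratio of 3.29. Nr1d1 rose by 1.65 ± 0.21 on the log2 scale (SE; limma adjusted p = 0.00396), and 0.647% of tested genes had a larger rise. Its difference was 1.41 without KO replicate 3, and it was called in all 14 alternatives. In the GENCODE annotation its exons share 263 of 3077 bases, 8.55%, with Thra on the opposite strand. The deposited length of Nr1d1 was 2721 bases, so the share of the counted exons may differ. Thra was at 27.5, 26.2 and 32.8 FPKM in KO and 20.7, 20.9 and 19.7 FPKM in WT samples. Since no source used here gives the strand setting of the counting, reads of that shared stretch cannot be assigned to either gene.

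Dbp (ENSMUSG00000059824, chromosome 7, 45705088 to 45710155, plus strand) encodes the D-box activator and is among the most strongly rhythmic transcripts of peripheral tissues. It was at 29.1, 31.0 and 59.2 FPKM in KO replicates 1, 2 and 3, against 18.6, 22.4 and 17.7 FPKM in WT replicates 1, 2 and 3. All KO samples were above all WT samples, and KO replicate 3 had about as much as the other KO samples together. Dbp rose by 0.94 ± 0.27 on the log2 scale (SE; limma adjusted p = 0.0296). Without KO replicate 3 the rise was 0.61 with an adjusted p of 0.00418 by limma. The limma adjusted p was 0.0815 without WT replicate 1, 0.0639 without WT replicate 2 and 0.0946 without WT replicate 3. In the GENCODE annotation the exons of Dbp share 539 of 2993 bases, 18.0%, with Sphk2 on the opposite strand. The deposited length of Dbp was 1789 bases, so the share of the counted exons may differ. Sphk2 was at 11.7, 10.6 and 7.53 FPKM in KO fat, against 14.2, 17.8 and 17.1 FPKM in WT fat.

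**Figure D2:**
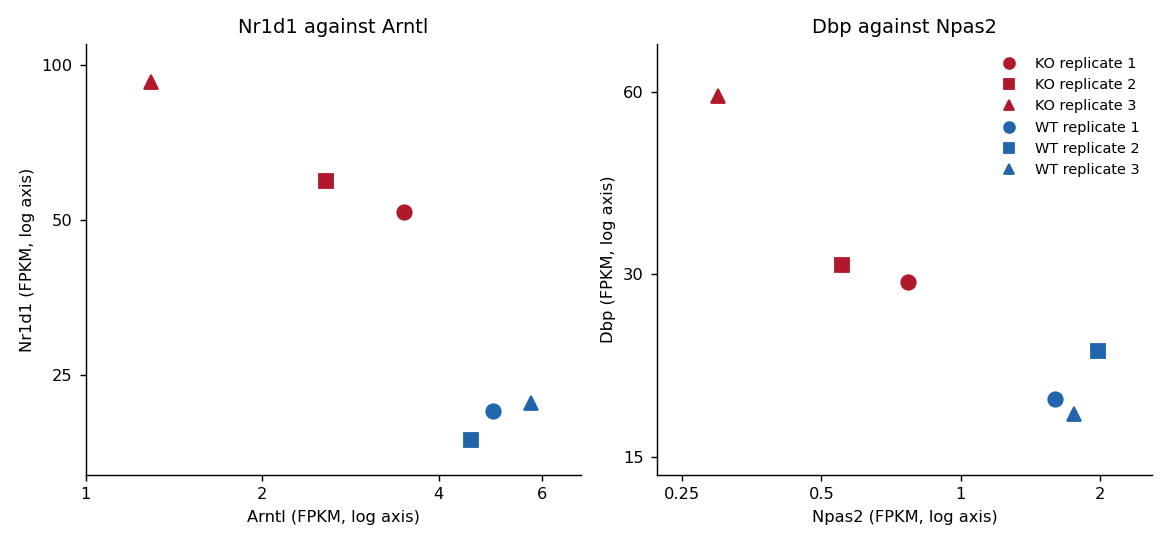
Each point is 1 library; Nr1d1 is plotted against Arntl on the left and Dbp against Npas2 on the right, in FPKM on log axes. KO libraries lie at low activator and high target levels, with KO replicate 3 farthest out at 1.30 FPKM Arntl and 93.0 FPKM Nr1d1, and the WT libraries lie close together at the other corner.

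Ratios within a library do not depend on how libraries are scaled to each other. The Nr1d1 to Arntl ratio was 14.9, 23.1 and 71.8 in KO replicates 1, 2 and 3, against 4.30, 4.12 and 3.84 in WT replicates 1, 2 and 3. The Dbp to Npas2 ratio was 37.8, 56.0 and 198 in KO samples, against 11.6, 11.3 and 10.0 in WT samples. Both ratios were higher in each KO sample than in any WT sample, which follows from the separation of each of these genes given above. Their spread was wide among the KO samples and narrow among the WT samples. The mean log2 level of the 7 E-box targets exceeded that of the 3 activators by 2.25, 2.26 and 3.36 in KO samples, against 1.03, 1.25 and 0.91 in WT samples. In KO replicate 3, where this gap was widest, the summed adipocyte markers were highest and the macrophage markers lowest, and the part of that in the gap was not tested.

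The Per genes encode the PERIOD proteins, the light- and hormone-responsive repressors of the loop. Per1 (ENSMUSG00000020893, chromosome 11, 69095217 to 69109960, plus strand) was at 35.7, 28.7 and 32.1 FPKM in KO replicates 1, 2 and 3, against 17.2, 25.6 and 17.1 FPKM in WT replicates 1, 2 and 3. The groups did not overlap, but WT replicate 2 came near the KO samples. Per1 rose by 0.69 ± 0.17 on the log2 scale (SE; limma adjusted p = 0.0183). That p became 0.0588 without WT replicate 1 and 0.0675 without WT replicate 3. Per2 (ENSMUSG00000055866, chromosome 1, 91415982 to 91459324, minus strand) was at 8.07, 6.07 and 7.81 FPKM in KO samples, against 4.17, 6.27 and 3.90 FPKM in WT samples. Here WT replicate 2 lay above KO replicate 2, so the groups overlapped. Per2 rose by 0.58 ± 0.19 (SE; limma adjusted p = 0.0441), the highest adjusted p of any call among the members. The adjusted p by limma was 0.106 without KO replicate 1, 0.0824 without KO replicate 3, 0.125 without WT replicate 1 and 0.136 without WT replicate 3.

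Per1 and Per2 kept nearly the same proportion in every library. The Per1 to Per2 ratio was 4.42, 4.72 and 4.11 in KO samples, against 4.12, 4.08 and 4.38 in WT samples, and the groups overlapped. WT replicate 2 was the highest WT sample for Per1, Per2, Per3, Dbp, Cry2 and Npas2 and the lowest for Arntl, Clock, Cry1 and Nr1d1. Per3 (ENSMUSG00000028957, chromosome 4, 151003652 to 151044665, minus strand), the PERIOD gene least needed for the core rhythm, was at 9.87, 11.7 and 15.6 FPKM in KO replicates 1, 2 and 3, against 7.34, 9.14 and 6.40 FPKM in WT replicates 1, 2 and 3. The groups were close, with KO replicate 1 just above WT replicate 2. Per3 rose by 0.65 ± 0.19 (SE; limma adjusted p = 0.0310). That p was 0.0632 without KO replicate 2, 0.0844 without WT replicate 1 and 0.102 without WT replicate 3.

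Cryptochromes are the stronger repressors of the BMAL1 and CLOCK pair, and the 2 genes differed. Cry2 (ENSMUSG00000068742, chromosome 2, 92403646 to 92434043, minus strand) was at 14.5, 13.4 and 22.2 FPKM in KO replicates 1, 2 and 3, against 8.47, 8.72 and 7.70 FPKM in WT replicates 1, 2 and 3. The lowest KO sample was well above the highest WT sample. Cry2 rose by 0.93 ± 0.18 on the log2 scale (SE; limma adjusted p = 0.00944) and was called in all 14 alternatives. Cry1 (ENSMUSG00000020038, chromosome 10, 85131702 to 85185054, minus strand) was at 3.17, 3.67 and 5.20 FPKM in KO samples, against 3.45, 3.03 and 3.33 FPKM in WT samples. KO replicates 2 and 3 lay above all WT samples and KO replicate 1 among them. Its difference was 0.24 with a 95% interval from −0.17 to 0.64 and a limma adjusted p of 0.291, and 0.06 without KO replicate 3. The Cry2 to Cry1 ratio was 4.58, 3.65 and 4.26 in KO samples, against 2.46, 2.88 and 2.31 in WT samples, with no overlap.

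**Figure D3:**
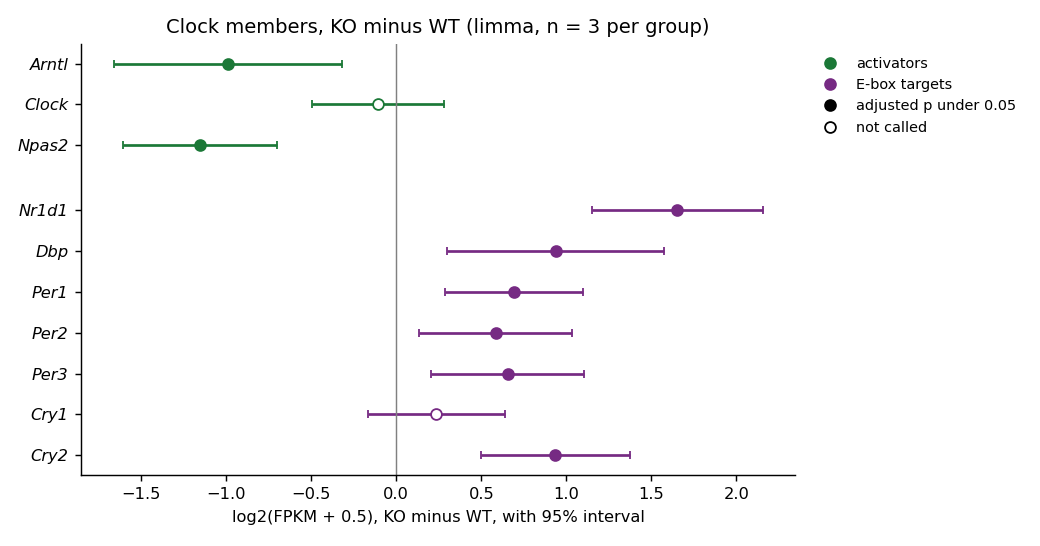
Difference in log2(FPKM + 0.5), KO minus WT, for the 3 activators and the 7 E-box targets, with 95% intervals from limma; filled points had an adjusted p under 0.05. All 3 activators lie left of 0 and all 7 targets right of 0, with Nr1d1 at 1.65, and the intervals of Clock and Cry1 include 0.

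The same 300-base windows were searched on both strands for the E-box CACGTG and the D-box core TTATGNA. The 9 matched members had 13 promoters between them. An E-box was found in 1 promoter each of Per1 and Cry1, beside 7.15% of all 32817 promoters. A D-box core was found in 1 promoter each of Per1 and Per3, beside 9.71%. With 13 promoters, counts this small cannot show an excess over those shares. The motifs do not overlap here. A match is a description of the letters, and elements farther away, such as those known inside Dbp, lie outside these windows. The 250 bases before the start are shown for these 3 genes, with the matches in capitals, because Per1 and Per3 rose while Cry1, which holds the same E-box letters as Per1, was not called (Per1 chr11:69098699-69098948, plus strand; Per3 chr4:151044666-151044915, minus strand; Cry1 chr10:85185055-85185304, minus strand; GRCm38.p6).
Per1: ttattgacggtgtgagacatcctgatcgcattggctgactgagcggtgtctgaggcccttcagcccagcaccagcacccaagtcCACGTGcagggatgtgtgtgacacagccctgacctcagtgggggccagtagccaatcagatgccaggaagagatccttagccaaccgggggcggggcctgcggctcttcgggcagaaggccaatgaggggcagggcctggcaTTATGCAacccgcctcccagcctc
Per3: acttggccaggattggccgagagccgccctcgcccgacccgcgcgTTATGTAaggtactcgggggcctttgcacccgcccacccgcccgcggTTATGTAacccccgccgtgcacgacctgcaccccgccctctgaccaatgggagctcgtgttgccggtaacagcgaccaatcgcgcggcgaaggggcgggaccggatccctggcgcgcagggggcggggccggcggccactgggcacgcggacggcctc
Cry1: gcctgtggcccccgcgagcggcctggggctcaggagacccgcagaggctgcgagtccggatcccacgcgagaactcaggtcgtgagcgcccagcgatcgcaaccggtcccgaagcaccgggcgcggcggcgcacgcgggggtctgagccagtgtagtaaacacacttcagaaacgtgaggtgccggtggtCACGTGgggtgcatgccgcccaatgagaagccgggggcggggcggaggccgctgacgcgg
Counted from the transcript start that follows each stretch shown, the E-box began at base −166 in Per1 and at base −60 in Cry1. Per3 held 2 D-box cores, beginning at bases −205 and −158, and Per1 held 1, beginning at base −24. The window of the more downstream listed start of Per1, not shown, held neither motif.

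By level per length in FPKM, the order of the members differed between the groups. In KO fat the means ran from Nr1d1 (68.1) over Dbp (39.8), Per1 (32.1), Cry2 (16.7), Per3 (12.4), Clock (8.28), Per2 (7.32), Cry1 (4.01) and Arntl (2.45) to Npas2 (0.54). In WT fat Nr1d1 (20.7), Per1 (20.0) and Dbp (19.6) were level within their spread, followed by Clock (8.80), Cry2 (8.30) and Per3 (7.63), then Arntl (5.08) and Per2 (4.78), then Cry1 (3.27), and last Npas2 (1.78). The samples of neighbours within each of these WT sets overlapped, and between sets, Cry1 and Npas2 included, they did not. In KO fat the samples of neighbours in the order overlapped except between Per1 and Cry2, Per2 and Cry1, and Arntl and Npas2. By its mean, Arntl thus stood below Cry1 in KO fat and above it in WT fat. In KO replicate 1, however, Arntl (3.48 FPKM) was above Cry1 (3.17 FPKM).

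Of 12 other transcription factors of the loop, 11 were tested, with 2 higher, 1 lower and a median difference of 0.14, beside 21.9% of all tested genes called higher and 21.6% lower. Hlf, a D-box activator of the same family as Dbp, was at 2.18, 2.45 and 3.31 FPKM in KO samples, against 1.17, 1.54 and 0.842 FPKM in WT samples, and rose by 0.91 ± 0.20 (SE, limma adjusted p = 0.0131). Tef, the remaining member of that family, had 0.52 ± 0.17 and an adjusted p of 0.0508 by limma. Cipc, a CLOCK-interacting repressor, fell by 0.60 ± 0.14 (limma adjusted p = 0.0163, and 0.0545 without WT replicate 3).

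Several genes known to cycle near Nr1d1 or opposite to Dbp were not called. Nr1d2, the REV-ERBβ paralogue, was at 18.6, 21.0 and 23.4 FPKM in KO samples, against 17.9, 21.5 and 17.6 FPKM in WT samples. These samples overlapped, and the difference of 0.14 had a 95% interval from −0.13 to 0.42, all of it below the interval of Nr1d1, which began at 1.15. Nfil3, the D-box repressor, had 0.07 ± 0.12, and Ciart, a repressor of the BMAL1 and CLOCK pair, 0.79 ± 0.37 with an adjusted p of 0.125 by limma. Bhlhe40 and Bhlhe41 encode the E-box repressors DEC1 and DEC2. Bhlhe41 had −0.48 with all samples and −0.75 without KO replicate 3, where its limma adjusted p was 0.00319, and Bhlhe40 had −0.08 with all samples and −0.35 without KO replicate 3 (adjusted p = 0.0424 by limma). Without that library 2 of the 11 were higher and 3 lower, and without WT replicate 3 only Hlf was called.

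**Figure D4:**
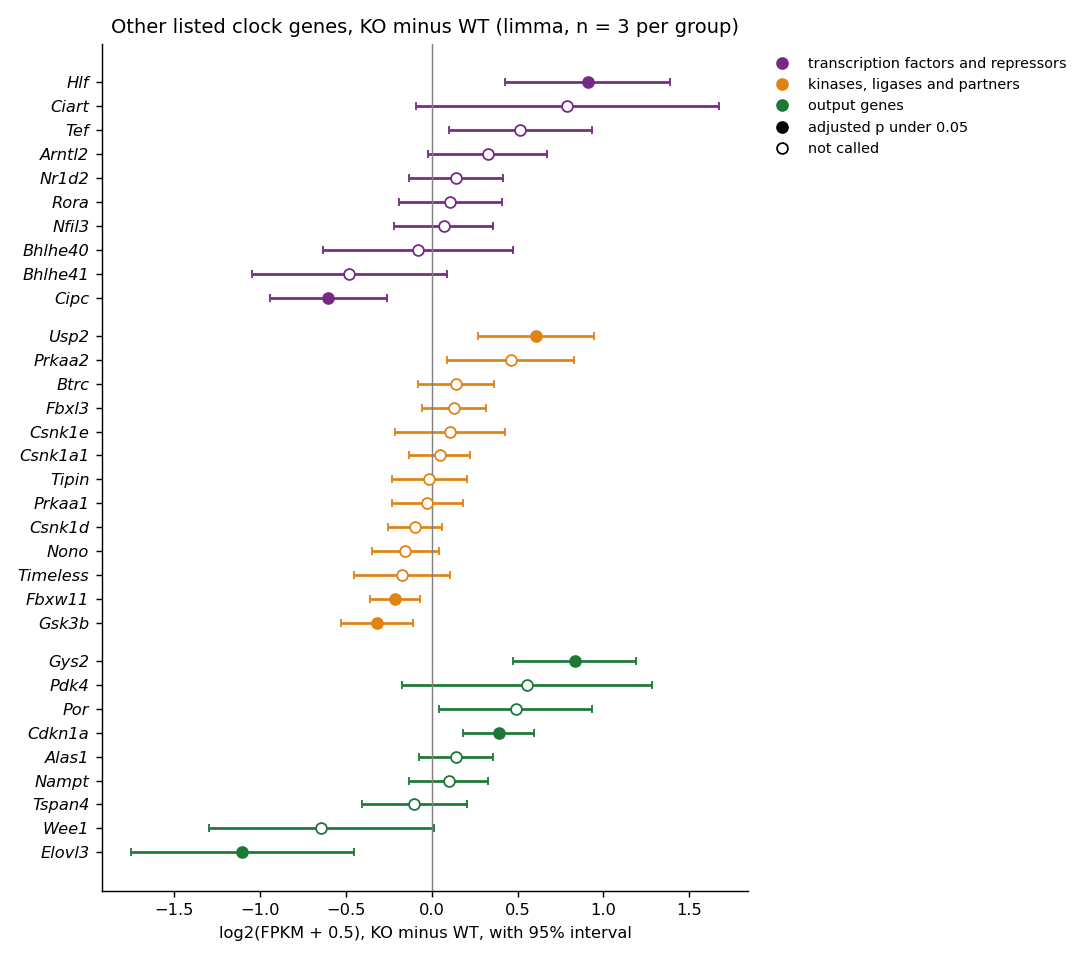
Difference in log2(FPKM + 0.5), KO minus WT, with 95% intervals, for tested genes of 3 lists, with 1 gene not shown: transcription factors and repressors, kinases with ligases and partners, and output genes. Filled points had a limma adjusted p under 0.05; Hlf at 0.91 and Gys2 at 0.83 are the highest of these and Elovl3 at −1.10 the lowest.

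Of 14 listed enzymes and partners that act on clock proteins, 13 were tested, 1 was higher and 2 were lower, with a median of −0.01, beside 43.5% of all tested genes called in either direction. Usp2, a deubiquitinase whose mRNA is itself rhythmic, rose by 0.61 ± 0.14 (limma adjusted p = 0.0153, 0.0527 without WT replicate 2 and 0.0610 without WT replicate 3). Gsk3b and Fbxw11, a kinase and a ubiquitin ligase subunit, fell by 0.32 ± 0.09 and 0.21 ± 0.06, with limma adjusted p of 0.0260 and 0.0281. None of the 13 was called without WT replicate 2 or without WT replicate 3, and only Usp2 was called without WT replicate 1. The limma adjusted p of Fbxw11 was also 0.0538 without KO replicate 1 and 0.0786 without KO replicate 2. It was 0.0520 with median-of-ratios scaling and 0.110 with the replicate number as a block. For Gsk3b it was 0.0664 without KO replicate 1 and 0.0700 with the block. The casein kinases Csnk1d and Csnk1e, which phosphorylate PER, had −0.10 ± 0.07 and 0.10 ± 0.13.

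Of 9 output genes, 2 were higher, 1 was lower and the median was 0.14, shares near or below the 21.9% and 21.6% of all tested genes. Gys2, a glycogen synthase gene activated by CLOCK in mouse liver, was at 11.8, 14.7 and 13.8 FPKM in KO samples, against 8.95, 6.05 and 7.23 FPKM in WT samples, and rose by 0.83 ± 0.15 (limma adjusted p = 0.00761). Cdkn1a, the cell cycle inhibitor p21 and a target of the repressor REV-ERBα in mouse liver, rose by 0.39 ± 0.09 (limma adjusted p = 0.0135). That p was 0.0569 without WT replicate 2 and 0.0516 without WT replicate 3. Elovl3, a fatty acid elongase, was at 0.175, 0.456 and 0 FPKM in KO samples, against 1.12, 0.668 and 1.18 FPKM in WT samples. It fell by 1.10 (limma adjusted p = 0.0184) but passed the filter only through the WT samples, and was not tested when any WT sample was left out. Alas1, which starts heme synthesis, and Nampt, which makes NAD, had 0.14 ± 0.09 and 0.10 ± 0.10. In the other direction, Wee1 had −0.64 ± 0.27 and was not called (limma adjusted p = 0.0986). Without KO replicate 1 Wee1 was at −0.90 with a limma adjusted p of 0.0243. Without KO replicate 3, 4 output genes were higher and 1 lower, Pdk4 and Por being added with 0.88 and 0.27. Without WT replicate 2 or without WT replicate 3, Gys2 alone was called.

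Glucocorticoids are a daily signal that induces Per1. Of 8 glucocorticoid response genes 2 were higher and none lower, with a median of 0.08, a share near the 21.9% of all tested genes called higher. Hsd11b1, the enzyme that regenerates active glucocorticoid, rose by 1.48 ± 0.28 and Zbtb16 by 1.18 ± 0.20, with limma adjusted p of 0.00818 and 0.00675. Tsc22d3 and Fkbp5, standard reporters of the receptor, had 0.12 ± 0.24 and 0.04 ± 0.22. Both were highest in KO replicate 1, at 105 and 27.4 FPKM. The lowest value of all samples was also a KO one, for Tsc22d3 53.9 FPKM in KO replicate 3 and for Fkbp5 15.3 FPKM in KO replicate 2.

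Whole profiles were compared by the root mean square difference of log2 values centred on their own mean over the 6 samples. The 3 genes most like Arntl were Ube2c, Cdk20 and Mical2, with differences of 0.0691, 0.0717 and 0.0729, and among the members Npas2 was nearest at 0.216. Those most like Dbp were RP23-8J15.1, Pxmp2 and Ptges, at 0.0823, 0.0951 and 0.103, and the nearest members were Cry2 at 0.137 and Per3 at 0.214. With 2 groups that differ at 43.5% of tested genes, a near profile says little about a particular gene.

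As a pattern over the cycle, the activators Arntl and Npas2 were low where Nr1d1, Dbp, the Per genes and Cry2 were high. Clock and Cry1 were not called, and Nr1d2 and Nfil3 differed by less than 0.2 on the log2 scale. The time of day of collection is not known for any sample. A shift of phase, a change of amplitude, a change of mean level and a difference in the time of collection between the groups cannot be told apart. Adipocyte and endothelial markers were also higher and macrophage markers lower in KO fat, and their part in this pattern was not tested.

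**Figure D5:**
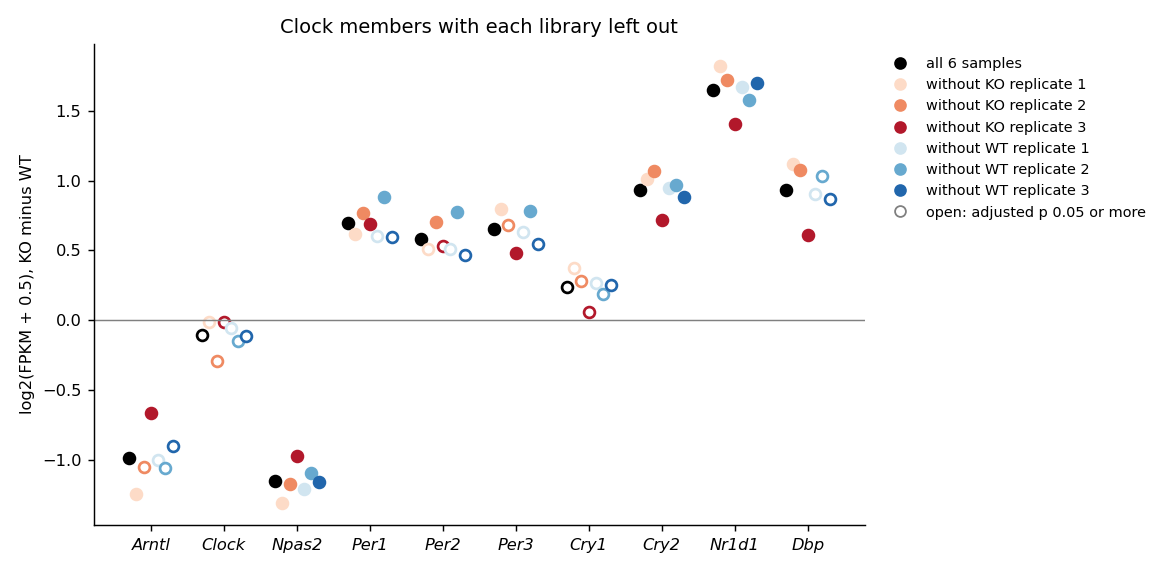
Difference in log2(FPKM + 0.5), KO minus WT, for each member with all 6 samples and with each library left out; open points had an adjusted p of 0.05 or more. The sign stayed the same in every fit shown, Npas2, Cry2 and Nr1d1 stayed under the threshold in each, and the values of Arntl and Dbp moved most without KO replicate 3.

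With no filter on low values, which raised the number of genes tested to 25206, the limma adjusted p was 0.0541 for Arntl, 0.0548 for Dbp, 0.0572 for Per3 and 0.0785 for Per2, while the differences were as given above. The sign of all 10 members was the same in all 14 alternatives. Without WT replicate 1 or without WT replicate 3 the members called were Npas2, Cry2 and Nr1d1.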

How the data were processed

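Per the labels' protocols, Trizol-extracted total RNA went into NEBNext Ultra RNA libraries. CASAVA, FastQC, STAR 2.5 and HTSeq 0.6.1 were used with build mm10, per the submitters' processing notes; no source used here gives the strand setting or the annotation. The authors deposited FPKM per gene, fragments per kilobase and 1000000 assigned reads, with 1 column per sample and the gene length in bases. FPKM times length summed to 1000000 in each sample, and 100% of values were whole multiples of 1 read within 0.01, which gave back the reads. A count of 3 reads on a 2 kb gene is 0.0489 to 0.0594 FPKM, counting error only. No samples were duplicates: the chi-square per degree of freedom between replicates was 15.5 to 98.1.

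A gene needed 0.5 FPKM in 3 samples to be tested. Values as log2(FPKM + 0.5) went into limma 3.58.1 under R 4.3.3, trend and robust moderation, two-sided, adjusted by Benjamini-Hochberg over all 14383 genes. Fold changes on that scale understate low genes. The procedure was tested on simulated reads with the same dispersion for all genes. That setting differs from the spread among these samples, so it does not measure error rates here. The members and gene lists were chosen with earlier results of these data known. Named are all members, Tfrc, up to 4 called genes of each clock list with the smallest p, and defining cell markers. Genes outside that rule were chosen after their values were seen. They were Nr1d2, Nfil3, Tef, Ciart, Bhlhe40, Bhlhe41, Csnk1d, Csnk1e, Alas1, Nampt, Wee1, Pdk4, Por, Tsc22d3, Fkbp5 and Gata2. For Adgre1 an older name in the table was matched through the identifier. Promoter sequences are RefSeq's, build GRCm38.p6, and were matched by symbol. Alternatives were other pseudocounts, filters and scaling, a block for replicate number, leaving out single samples, and limma-voom. Leaving out KO replicate 3 with WT replicate 2 was chosen after seeing the data. The values of 1 listed gene are not reported here, though it stays in the counts.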

Additional observations from a re-analysis of the deposited data

How the results depend on the processing

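The number of genes called, 6253 with all samples, ranged from 3336 to 5861 with 1 sample left out, lowest without WT replicate 2 and 3421 without WT replicate 3. The number of clock members called, 8 with all samples, ranged from 3 to 7, and was 3 without WT replicate 1 or 3. It was 4 with no filter on low values and 5 with the replicate number as a block. It stayed at 8 with pseudocounts of 0.1 and 1, a filter at 1 FPKM, median-of-ratios scaling, limma-voom on the recovered reads, and without both KO replicate 3 and WT replicate 2. At the filter of 1 FPKM, Npas2 passed only through the WT samples. No member and no other gene given as called reversed its sign in any alternative. Of the uncalled genes given by value, Nfil3 was −0.02 without WT replicate 2, Bhlhe40 0.12 without KO replicate 2, and, without KO replicate 1, Fkbp5 −0.21 and Tsc22d3 −0.13, each opposite in sign to its value with all samples; Fkbp5 was also −0.03 without WT replicate 1. Deviations of same-numbered samples correlated across genes at −0.24, 0.03 and −0.18, and those of differently numbered samples at −0.08 to 0.23. With 3 samples per group these values depend on each other, so they do not settle whether the replicate numbers pair the samples. With the block 4581 genes were called. The planned quasi-likelihood and negative binomial count models were not run, since the deposited values are FPKM. Npas2, at 32 reads in KO replicate 3, is the member whose value depth limits most.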
